A study of Rattus norvegicus with 12 samples.

Results

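Mesenteric lymph nodes of rat pups that had received conjugated linoleic acid (CLA) for 5 weeks through their dam were compared with those of pups that had received it for 3 weeks by gavage. The comparison was chosen by its groups and not by measured values: the 3 arrays of group A were set against the 3 arrays of group C, 6 of the 12 arrays of the series, across all probe sets other than the controls. In group A the dams ate a diet with CLA for the last 2 weeks of gestation and for the 3 weeks of suckling, so that CLA reached the pups before birth and then in milk. In group C the dams ate a standard diet, and the pups were given CLA by mouth each day during the 3 weeks of suckling. Groups B and D are given only beside these. Group B combined 2 weeks of maternal CLA diet in gestation with 3 weeks of gavage, and group D received no CLA. All pups were Wistar rats killed at the end of suckling, the CLA was a mixture rich in the c9,t11 isomer with a smaller part of t10,c12, and each array held the RNA of 1 pup. Groups A and C differed at once in route, in exposure before birth and in total time. The study also reported more CLA, with a larger part of t10,c12, in the plasma of group A than of group C. Gavaged litters were separated from their dams before each dose. These differences cannot be told apart. Nothing in the labels says which litter a pup came from, so the tests measure only the spread between these arrays.

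Mesenteric lymph nodes collect lymph from the gut, and in them B cells in follicles and T cells in the paracortex meet antigen carried in from the intestine. Stromal cells and high endothelial venules build the frame of the node and admit lymphocytes from the blood, and chemokines place them. Around the time of weaning the node grows fast, and growing lymphocytes make much RNA processing, protein folding and protein synthesis machinery. Long chain fatty acids, CLA among them, can act on nuclear receptors of the PPAR family, are precursors or competitors of eicosanoids, and can lower fat synthesis in adipose tissue.

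Group A differed widely from group C. Of 31042 probe sets 5247, or 16.9%, differed at least 2-fold with an adjusted p under 0.05 by limma with Benjamini-Hochberg adjustment. Of these, 2209 (7.12% of those tested) were higher and 3038 (9.79%) were lower in group A. The lower probe sets moved further, with a median of 3.08-fold for those lower and 2.34-fold for those higher in group A. At 4-fold 217 were higher and 909 lower, and at 8-fold 23 were higher and 198 lower. The split depended on the scaling of the arrays. The values used here were quantile normalized, and with the values as deposited 6557 probe sets were called higher and 1493 lower in group A. Over all probe sets the median of the log2 differences was 0.11 after quantile normalization, 0.13 after centring on the 75th percentile and 0.57 as deposited, so each change here is relative to the bulk of the array.

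Several technical measures moved with the groups. The deposited median intensity was 27.6 to 32.9 in group A and 20.2 to 27.0 in group C, and the 5S rRNA control read 80.7 to 87.8 in group A and 30.7 to 34.0 in group C. The ratio of the 3' to the 5' probe set of hexokinase, a measure of RNA integrity, was 3.19, 4.96 and 2.84 in group A and 2.62, 1.82 and 2.61 in group C, and that of Gapdh was 1.21, 1.53 and 1.38 in group A and 1.11, 1.28 and 1.10 in group C. The ratio of actin did not go the same way, at 1.37, 1.79 and 1.56 in group A and 1.60, 1.74 and 1.63 in group C. The part of these measures in the differences was not tested. Xist, the RNA of the inactive X chromosome, read 6.36 in replicate 3 of group A and 8.61 in replicate 3 of group C on the log2 scale, against 2.93 and 1.69 in the other two arrays of group A and 0.74 and 0.00 in those of group C, and the Y-linked Eif2s3y was low in the same arrays. The labels give no sex. Each group holds 1 such array, and without both of them 1689 probe sets were called higher and 2422 lower in group A.

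The node's defining genes were well above background in both groups, with Cd3e of T cells at 10.36 to 10.77 in group A and 10.11 to 10.37 in group C and Ccl21 of its stroma at 11.76 to 12.21 in group A and 11.94 to 12.15 in group C. Agreement within the groups was higher than between them, with correlations over all probe sets of 0.935 to 0.940 within group A, 0.932 to 0.935 within group C and 0.872 to 0.900 between arrays of group A and arrays of group C. On the first principal component group A spanned 87.85 to 111 and group C spanned -69.3 to -55.49. The group B arrays, at -61.13 to -46.4, lay beside group C although their pups had the same 5 weeks of CLA as group A. Over the called probe sets the group B arrays were nearer to the mean of group A than to that of group C for only 6.77 to 9.19%. The group D arrays split: replicates 1 and 2 were nearer to group A for 49.9 and 47.7%, and replicate 3 for 8.6%. Replicate 3 of group D also read 8.95 for Xist and 1.66 for Eif2s3y, against 2.89 and 3.30 for Xist and 7.32 and 7.31 for Eif2s3y in replicates 1 and 2, and the part of this in the split was not tested.

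**Figure D1:**
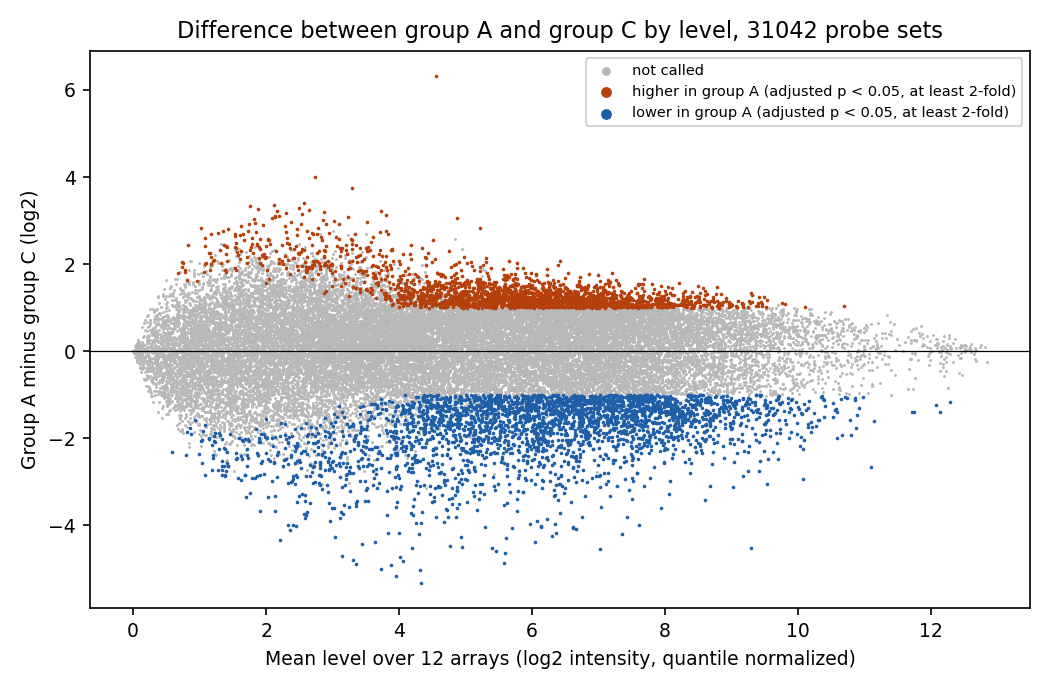
Log2 difference between group A and group C (vertical axis) against the mean log2 level over the 12 arrays (horizontal axis), 1 point per probe set for all 31042. The 3038 probe sets called lower in group A reach further from 0 than the 2209 called higher, and among the brightest probe sets more were lower than higher.

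The calls were spread unevenly over the range of signal. Among the 6209 brightest probe sets 6.46% were called higher and 15.5% lower in group A, and among the 6209 dimmest 1.69% were higher and 1.77% lower. Probe sets with 1 gene symbol were called higher in 8.84% and lower in 10.4%, and those without a symbol were called higher in 3.58% and lower in 8.30%. Of the calls, 1879 of the higher and 2328 of the lower lay above background in all 6 arrays. Many genes have several probe sets. Among genes with at least 2 probe sets above background in all 6 arrays, 687 had a call lower in group A, and every probe set of the gene passed in that direction in 403 of them. For calls higher in group A the counts were 378 and 184. In 8 genes, Eeig2, Itga6, Klhl31, Pikfyve, Ptprd, Sbk1, Smarcad1 and Usp9x, 1 probe set was called higher and another lower.

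The largest named differences lay in probe sets that were near background in 1 group. A probe set of Zfp62, which encodes a zinc finger protein, read 2.16, 0.00 and 0.00 in group A and 6.10, 6.09 and 5.90 in group C, and one of Resf1, a factor in the silencing of retroelements, read 2.47, 2.20 and 2.64 in group A and 7.25, 7.05 and 7.58 in group C. Both probe sets were within background in every group A array. The fold on such a probe set is a lower limit, set by the background of group A, of at least 8.97-fold for that of Zfp62 and at least 21.6-fold for that of Resf1 (adjusted p = 9.76e-05 and 3.86e-05 by limma). The other probe sets of these genes, above background in all 6 arrays, gave -1.96 for Zfp62 and -1.78 for Resf1 on the log2 scale. Other probe sets of this kind were those of Akap9, a scaffold for protein kinase A at the Golgi and centrosome, lower by at least 9.52-fold, Ttc3, a ubiquitin ligase, lower by at least 15-fold, Pls3, an actin bundling protein, lower by at least 8.43-fold, and Rabep1, an effector of endosome fusion, lower by at least 9.06-fold. That of Nudt21, a subunit of the factor that picks polyadenylation sites, was lower by at least 5.85-fold, Immt, of the mitochondrial inner membrane, by at least 5.21-fold, Usp8, a deubiquitinase of endosomes, by at least 5.43-fold, Itsn2, an adaptor in endocytosis, by at least 4.75-fold, and Tmf1, a Golgi protein, by at least 4.32-fold. That of Ipo5, an importin, was lower by at least 2.93-fold. Those of Zfp638 and Gpbp1, a zinc finger protein and a promoter binding protein, were above background in 2 of the 3 group A arrays, with log2 differences of -4.62 ± 0.77 (SE) and -4.54 ± 0.47. In each gene the probe set named was picked for its largest called difference, so smaller differences on the others largely follow from this choice. All 15 genes with the largest decreases, Ptprc included, have other probe sets, 24 in all, and each of the 24 differed less than the one named, with a median of -1.63. Of them 21 also passed lower in group A and none passed higher. These limits therefore hold for the probe set named and not for every transcript of the gene. Other probe sets above background in all 6 arrays gave -1.17 for Akap9, -1.28 and -1.6 for Immt, -1.92 for Tmf1, -1.64 and -1.53 for Ttc3, -0.98 for Pls3, -1.62 for Rabep1 and -1.32 for Ipo5. Usp8 gave -1.43 and 0.12 on its others (adjusted p = 0.000354 and 0.828 by limma), and Nudt21 gave -0.29 (adjusted p = 0.0598).

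Ptprc, the tyrosine phosphatase CD45 that all leukocytes carry, differed most among genes measured above background in all arrays. On 1 probe set it read 6.68, 5.64 and 6.34 in group A and 10.85, 10.53 and 10.83 in group C, a difference of -4.52 ± 0.36 on the log2 scale or 22.9-fold (adjusted p = 4.36e-06 by limma). On the other probe set it read 8.94, 9.28 and 9.33 in group A and 10.93, 10.72 and 11.08 in group C, which is 3.30-fold (adjusted p = 0.000101). The groups did not overlap on either probe set, but the sizes of the 2 differences were far apart. In group B the 2 probe sets averaged 10.51 and 10.79, near group C.

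The largest increases were all in dim probe sets. That of Bri3, a small lysosomal membrane protein, read 5.2, 5.62 and 4.79 in group A and 2.23, 0.62 and 0.77 in group C, at least 5.81-fold higher in group A (adjusted p = 0.0023). Those of Elfn2, Hcrtr1 (a receptor for orexin), Nat14, Apex1 (an endonuclease of DNA repair), Tac3 (a tachykinin precursor), Myh6 (a cardiac myosin heavy chain), Med27 (of the Mediator complex) and Oas1b (of the interferon response) were higher by at least 3.24, 3.21, 3.07, 2.98, 2.16, 1.89, 1.62 and 1.5-fold. Pdlim7, Hoxb7 and Dnajb3 were above background in 1 of 3 group C arrays and had log2 differences of 3.74, 3.21 and 3.11. The calls of Wbp2, Angptl8 and Snx21 were lost without 1 array, with an adjusted p of up to 0.0918, 0.0977 and 0.0655: Wbp2 without replicate 2 or 3 of group A or 1 or 3 of group C, Angptl8 without replicate 1 or 2 of group A or of group C, and Snx21 without replicate 3 of group C. For 6 of the 15 genes other probe sets were present, 9 in all, with a median of 0.74, of which 5 passed higher and none lower; that of Bri3 gave 1.04 (adjusted p = 0.00041). With a floor of 32 on the intensity none of these 15 kept a 2-fold call, and the log2 difference of Snx21 1374745_at was 0.42. That floor also reaches some of the largest decreases. In group C the probe set of Ipo5 read 4.56, 4.03 and 4.67, under the log2 of 32. That of Tmf1 read 5.13, 4.79 and 5.0 there, close to it. Among the increases, the probe set 1393302_at, to which the annotation used here gives no gene, was the exception in size. It read 6.46, 6.73 and 6.25 in group A and 0.00, 0.48 and 0.00 in group C, at least 14.1-fold higher (adjusted p = 6.61e-07 by limma). It averaged 5.79 in group B, and group C was the only group in which it was near 0.

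In counts by gene, the probe set with the highest mean over the 12 arrays stood for each of 14217 genes. At an adjusted p under 0.05, 28.2% of these were higher and 15.5% lower in group A, with a median log2 difference of 0.33, and the arrays of group A and group C did not overlap for 58.3%. The counts of gene lists below are to be read against these shares. The fold given for a list gene is that of this probe set, and other probe sets of the gene can differ from it.

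**Figure D2:**
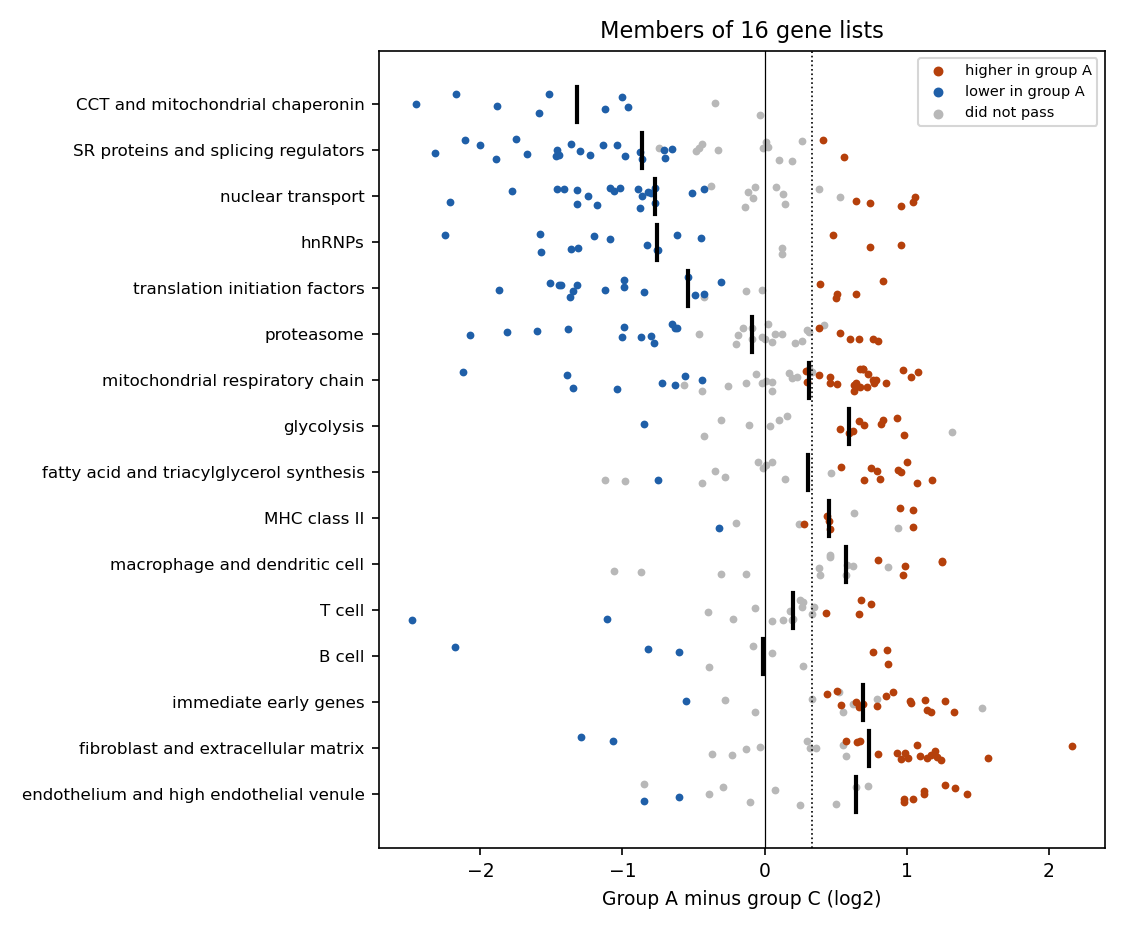
Log2 difference between group A and group C (horizontal axis) for every measured member of 16 gene lists, 1 point per gene, coloured where the adjusted p was under 0.05. Black bars mark the median of each list and the dotted line the median of all genes, 0.33: the chaperonin, splicing regulator, nuclear transport and hnRNP lists lie left of 0, and the immediate early and matrix lists lie right of the dotted line.

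The chaperonin genes were lower in group A. Chaperonins are barrels in which newly made proteins fold: the 8 subunits of CCT form the one of the cytosol, which folds actin and tubulin, and Hspd1 with its lid Hspe1 form that of mitochondria. Of the 10 genes 8 fell and none rose, with a median of -1.32. Cct8 read 6.96, 7.04 and 7.28 in group A and 9.56, 9.37 and 9.68 in group C, a log2 difference of -2.45 ± 0.11 or 5.45-fold (adjusted p = 2.14e-07). Tcp1, the founding subunit of CCT, read 8.58, 8.14 and 8.43 in group A and 10.55, 10.61 and 10.49 in group C, 4.50-fold (adjusted p = 5.51e-07). Within both genes the arrays of the groups lay far apart. Cct2, Cct4 and Cct5 were 3.69, 3.00 and 2.86-fold lower in group A. Cct7 did not pass, at -0.35 ± 0.16 (adjusted p = 0.109). With the values as deposited 5 of the 10 fell, with a median of -0.58 against 0.57 for all probe sets. List medians count 1 probe set per gene, while 0.57 counts every probe set. After quantile normalization the median was 0.11 over all probe sets and 0.33 by gene. As deposited, the median by gene was not computed.

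The pair of the mitochondrial chaperonin differed. Hspd1 read 9.44, 9.37 and 9.64 in group A and 10.61, 10.70 and 10.52 in group C, a difference of -1.12 ± 0.10 (adjusted p = 1.02e-05). Hspe1 read 10.27, 10.46 and 10.50 in group A and 10.54, 10.46 and 10.31 in group C, a difference of -0.03 ± 0.12 (adjusted p = 0.893). With the values as deposited the call of Hspd1 was lost, at a log2 difference of -0.38. The 2 genes lie head to head on chromosome 9 and their start sites are 290 bases apart, so that 211 bases of their promoter windows are the same sequence read from opposite strands. They are shown here because Hspd1 and Hspe1 share a promoter region and only Hspd1 passed; the difference between the 2 genes was not tested. Tcp1 is shown as the one other of the 10 chaperonin genes whose window holds the motif. RefSeq windows from 250 bases before to 50 after the start were read on assembly GRCr8, and capitals mark CCGGAAG, the core of sites of ETS factors, on either strand. Hspd1 is the minus strand of chr9:64083988-64084287, Hspe1 the plus strand of chr9:64084077-64084376 and Tcp1 the minus strand of chr1:50384478-50384777.
Hspd1: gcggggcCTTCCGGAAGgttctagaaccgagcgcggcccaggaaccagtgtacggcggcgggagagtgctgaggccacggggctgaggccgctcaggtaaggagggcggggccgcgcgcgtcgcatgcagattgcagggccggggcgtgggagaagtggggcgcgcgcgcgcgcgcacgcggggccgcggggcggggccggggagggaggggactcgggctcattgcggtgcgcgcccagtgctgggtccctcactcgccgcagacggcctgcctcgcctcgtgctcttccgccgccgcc
Hspe1: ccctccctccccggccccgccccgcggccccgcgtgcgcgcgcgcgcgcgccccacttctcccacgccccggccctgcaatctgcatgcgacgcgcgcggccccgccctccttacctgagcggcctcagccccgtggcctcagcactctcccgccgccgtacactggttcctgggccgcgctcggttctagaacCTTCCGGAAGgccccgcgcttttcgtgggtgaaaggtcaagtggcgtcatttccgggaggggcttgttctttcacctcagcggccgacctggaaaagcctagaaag
Tcp1: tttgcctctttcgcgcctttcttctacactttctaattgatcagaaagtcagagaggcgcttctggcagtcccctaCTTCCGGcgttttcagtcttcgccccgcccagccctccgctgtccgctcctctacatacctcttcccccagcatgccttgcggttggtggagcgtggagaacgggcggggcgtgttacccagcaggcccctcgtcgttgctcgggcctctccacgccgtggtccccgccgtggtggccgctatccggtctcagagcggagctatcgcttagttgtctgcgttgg
Of the 10 chaperonin promoters 3 hold CCGGAAG, and those of the other genes of the list, Cct2, Cct4, Cct5 and Cct8 among them, do not. In the shared stretch the motif stands on both strands, overlapping itself by 4 bases. Searched on both strands, CCGGAAG was in 9.22% of all 27457 promoters of the table, and in 15.1% of the 11733 that matched a measured gene (82.5% of 14217). It was in 11.1% of the promoters of genes called higher at 2-fold, in 22.3% of those called lower and in 14.8% of those not called. The median GC content was 62.3% for genes called higher, 59.7% for those called lower and 59.7% for those not called. Other motifs were searched as well. GAANNTTC, with N for any base, was in the promoters of Cct4, Hspd1 and Hspe1. It was in 5.9% of the promoters of measured genes and 7.3% of those of genes called lower. TGACGTCA was in that of Cct4 alone. A match in a window is a description of letters and was not tested for binding.

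Genes of RNA processing were the next group to be lower. SR proteins and related regulators bind pre-mRNA and choose splice sites, and of 33 measured 20 fell and 2 rose, with a median of -0.86. Tra2b read 8.73, 9.10 and 9.26 in group A and 10.55, 10.31 and 10.60 in group C, 2.75-fold. Son, a scaffold of nuclear speckles, read 8.33, 8.51 and 8.5 in group A and 10.12, 9.99 and 10.23 in group C, 3.17-fold (adjusted p = 9.54e-05). Ddx5, an RNA helicase, Rbm5 and Srsf5 were 2.06, 2.56 and 2.72-fold lower, and Srsf4 was 1.48-fold higher (adjusted p = 0.00103). Heterogeneous nuclear ribonucleoproteins (hnRNPs) coat nascent transcripts, and 12 of 17 fell while 3 rose. Hnrnpa1, which often acts against SR proteins at splice sites, read 8.82, 8.37 and 8.48 in group A and 10.78, 10.83 and 10.80 in group C, 4.74-fold (adjusted p = 6.61e-07). Hnrnpa3 and Hnrnpu were 2.99 and 2.13-fold lower, while Hnrnpl and Ptbp1, a repressor of exons, were 1.39 and 1.67-fold higher. The probe sets of Hnrnpu were far apart, as its others gave log2 differences of -0.08 and -3.18 (adjusted p = 0.723 and 0.00388 by limma).

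The core of the spliceosome went the other way on balance. Of 26 genes of the small nuclear ribonucleoproteins and their partners 11 rose and 5 fell, with a median of 0.22. Snrpa, a U1 protein, read 7.82, 8.20 and 7.78 in group A and 6.87, 6.76 and 6.53 in group C, 2.32-fold higher, and Snrpb, of the Sm ring, was 1.79-fold higher. Sf3b1, of the U2 particle, read 8.36, 8.67 and 8.67 in group A and 10.67, 10.37 and 10.61 in group C, 3.95-fold lower. Without replicate 3 of group C 7 of these genes rose. The median of 0.22 was under that of all genes, 0.33.

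Nuclear transport genes fell in 20 of 35 and rose in 5. Xpo1, the main exporter of proteins, read 6.85, 6.79 and 7.0 in group A and 9.15, 8.98 and 9.14 in group C, 4.61-fold (adjusted p = 9.48e-07). Kpnb1 and Kpna1, the importin that carries cargo through the pore and one of its adaptors, were 2.37 and 3.44-fold lower, and Nup155, of the pore scaffold, was 2.74-fold lower. Ipo4, Rangap1, which activates the GTPase Ran, and Nup62, of the central channel, were 1.94, 2.08 and 2.06-fold higher in group A. The count of those that rose was 3 without replicate 1 or 3 of group A or replicate 1 or 2 of group C. As deposited, 7 nuclear transport genes fell and 7 rose, with a median of -0.14, and the SR list had 12 that fell and 6 that rose, with a median of -0.30. The hnRNPs then had 3 that fell and 5 that rose, with a median of -0.11. These medians were below that of all probe sets, 0.57, by 0.71, 0.88 and 0.68. The list medians use 1 probe set per gene, and the gap to a median by gene was not computed.

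The machinery of protein synthesis was divided. Translation initiation factors bring the ribosome to mRNA, and 15 of 23 fell while 5 rose. Eif2s2, the beta subunit of the factor that delivers the initiator tRNA, read 8.28, 8.48 and 8.38 in group A and 10.34, 10.11 and 10.29 in group C, 3.65-fold (adjusted p = 1.07e-06). Its alpha subunit Eif2s1 and Eif3m were 2.59 and 2.85-fold lower, and Eif6, which keeps ribosomal subunits apart, was 1.77-fold higher. Of 19 aminoacyl-tRNA synthetases, which load amino acids on tRNA, 7 fell and 4 rose: Lars1 and Rars1, for leucine and arginine, were 4.74 and 3.82-fold lower, and Vars1, for valine, was 2.10-fold higher. The count that rose was 2 without replicate 1 of group A, replicate 3 of group B or replicate 1 or 3 of group C. Of 22 cytosolic ribosomal proteins 7 fell, 1 rose and 14 did not pass. Rpl5 read 11.29, 10.90 and 11.23 in group A and 12.50, 12.56 and 12.52 in group C, and Rpl7 had the same fold, 2.62. The median of the ribosomal list was -0.04, and as deposited none of the 22 passed in either direction.

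Protein turnover and the stress chaperones showed both directions. Of 35 proteasome genes 12 fell and 6 rose, though as deposited 4 fell and 13 rose. Psma1 and Psma4, of the outer ring of the core particle, were 4.19 and 3.03-fold lower, and Psmb2, of the inner ring, and Psmd3, of the lid, were 1.51 and 1.74-fold higher. Among 20 heat shock proteins and DNAJ co-chaperones 9 fell and 2 rose, with Hspa9, of the mitochondrial matrix, and Hspa4 2.66 and 3.02-fold lower. The 2 became 1 without any one array of group A or C, and 4 without replicate 3 of group D. As deposited the medians of the initiation factor, synthetase, heat shock, proteasome and ribosome lists were 0.15, 0.36, 0.18, 0.65 and 0.52. All were above 0 and, except for the proteasome, below the 0.57 of all probe sets. Because these medians use 1 probe set per gene, their place against all genes as deposited is not given.

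**Figure D3:**
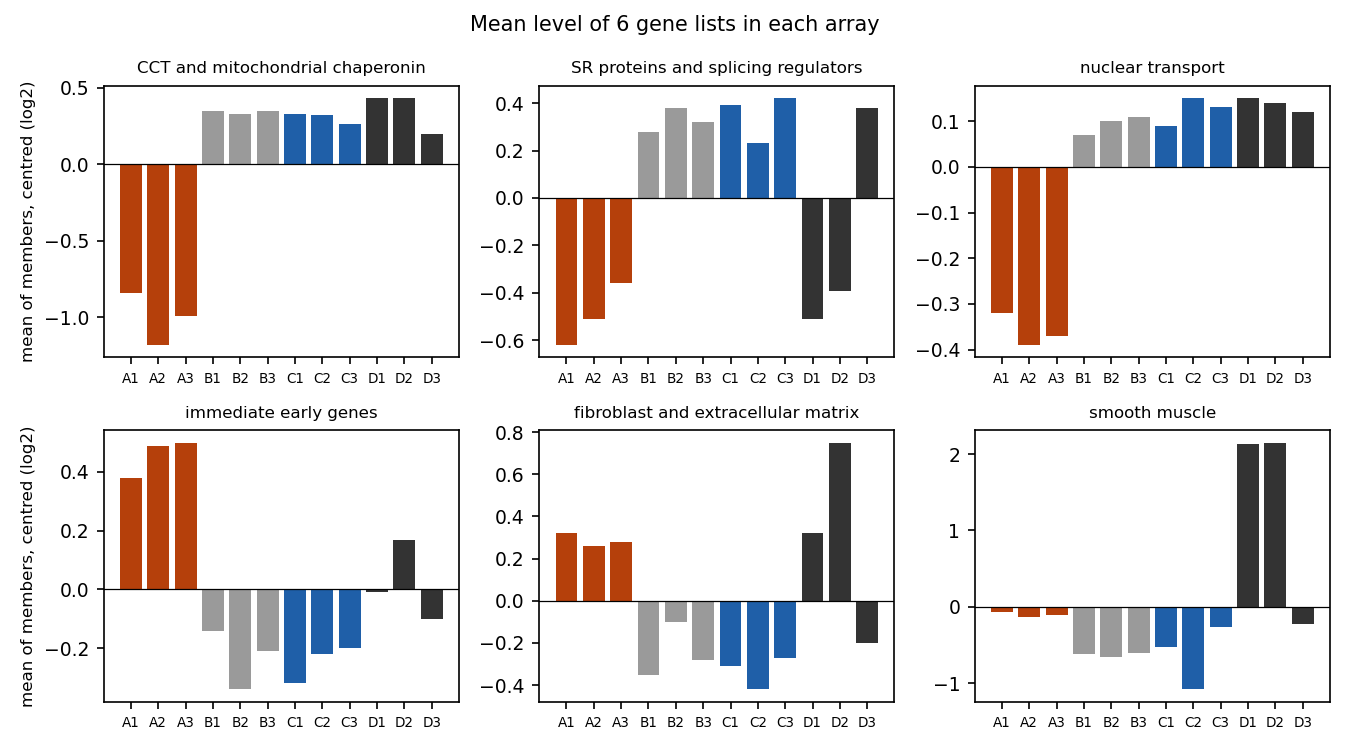
Mean log2 level of the members of 6 gene lists in each array, each member centred on its mean over the 12 arrays (vertical axis), for group A, B, C and D arrays from left to right. For the chaperonins the group A arrays lie at -1.18 to -0.84 and the group C arrays at 0.26 to 0.33; for the splicing regulators replicates 1 and 2 of group D lie with group A, and replicate 3 with groups B and C.

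In groups B and D these lists did not stand alike. For the chaperonins the mean of the members, each centred over the 12 arrays, was 0.33 to 0.35 in group B and 0.20 to 0.43 in group D, so that only group A was low. For nuclear transport group A spanned -0.39 to -0.32, group B 0.07 to 0.11, group C 0.09 to 0.15 and group D 0.12 to 0.15. For the splicing regulators group A spanned -0.62 to -0.36, group B 0.28 to 0.38 and group C 0.23 to 0.42, and in group D it was -0.51 and -0.39 in replicates 1 and 2 but 0.38 in replicate 3. Replicates 1 and 2 of group D also held smooth muscle transcripts, with a list mean of 2.13 and 2.15, against -0.13 to -0.07 in group A and -1.08 to -0.26 in group C. The spread of group D enters the pooled error of the fit.

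Genes of energy metabolism were more often higher. Of 45 subunits of the mitochondrial respiratory chain 23 rose (51.1%) and 8 fell (17.8%), against 28.2% and 15.5% of all genes. The median of this list, 0.31, was close to the 0.33 of all genes. Without replicate 3 of both groups 13 rose. Cox8a, of cytochrome oxidase, read 10.91, 11.11 and 10.99 in group A and 10.14, 10.26 and 10.05 in group C, 1.80-fold (adjusted p = 9.39e-05), and Cox6b1 was 1.57-fold higher. Uqcrc2, of complex III, read 8.26, 7.99 and 8.16 in group A and 10.26, 10.32 and 10.19 in group C, 4.34-fold lower (adjusted p = 6.61e-07). Ndufs1, of complex I, and Sdha, of complex II, were 2.62 and 2.55-fold lower. Of 17 glycolysis genes 9 rose: Slc2a1, the glucose transporter GLUT1, Aldoa (aldolase) and Eno1 (enolase) were 1.97, 1.51 and 1.62-fold higher. Ldha, which makes lactate, was 1.80-fold lower (adjusted p = 0.00619), with no call as deposited or with either centring.

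Most genes of fat synthesis that passed were higher in group A. Of 22 genes of fatty acid and triacylglycerol synthesis 10 rose and 1 fell, with a median of 0.30, close to the 0.33 of all genes. Gpd1, which makes the glycerol backbone, read 9.09, 8.68 and 8.77 in group A and 7.57, 8.26 and 7.89 in group C, 1.92-fold (adjusted p = 0.00148 by limma). Its other probe set, above background in all 6 arrays, gave -0.14 and did not pass (adjusted p = 0.855 by limma). Srebf1, the transcription factor of lipogenesis, read 8.16, 8.09 and 8.21 in group A and 7.12, 7.26 and 6.88 in group C, 2.10-fold. Dgat1 and Dgat2, which add the last acyl chain of triacylglycerol, were 1.68 and 2.26-fold higher, and Pck1, of glyceroneogenesis, was 1.75-fold higher. Scd, the desaturase of stearate, read 10.51, 9.94 and 10.80 in group A and 10.15, 10.75 and 10.51 in group C and did not pass (adjusted p = 0.965). Without replicate 3 of both groups 2 of the 22 rose, and Srebf1, Pck1 and Dgat2 were not among those that passed. Fat lies around the node, and of 16 adipocyte genes 6 rose and 1 fell, with a mean of the centred members -0.17 to 0.13 in group A and -0.56 to -0.31 in group C. Pnpla2, the lipase of fat droplets, was 1.92-fold higher, while the defining genes Fabp4 and Pparg gave -0.18 (adjusted p = 0.456) and -0.33 (adjusted p = 0.391). Lpl, lipoprotein lipase, was 1.66-fold lower (adjusted p = 0.0141), a call lost without replicate 2 of group A or replicate 3 of group C (adjusted p up to 0.0694). The part of adipose tissue in these values was not tested.

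Of 26 genes of PPAR targets and fatty acid oxidation 5 rose (19.2%) and 4 fell (15.4%), with a median of -0.04. Among all genes 28.2% rose and 15.5% fell, so falls were about as frequent in this list and rises less frequent. Cd36, the fatty acid carrier and scavenger receptor, read 6.92, 6.65 and 7.10 in group A and 9.75, 9.09 and 9.58 in group C, a log2 difference of -2.58 ± 0.20 or 5.99-fold (adjusted p = 3.6e-06). It averaged 9.35 in group B and read 8.95 to 9.21 in group D, so that only group A was low. Acadm, the medium chain acyl-CoA dehydrogenase, read 7.62, 7.53 and 7.57 in group A and 8.60, 9.13 and 8.87 in group C, 2.46-fold lower. Ucp2, a carrier of the mitochondrial inner membrane, was 2.05-fold higher, and Ppard, the PPAR delta gene, was 2.12-fold higher (adjusted p = 0.0104). Of these genes 3 rose without replicate 1 or 3 of group A or replicate 2 or 3 of group C, 2 rose without replicate 1 of group C, and 2 fell without replicate 2 of group A.

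Among 17 genes of eicosanoid synthesis 3 rose (17.6%) and 1 fell (5.88%), below the 28.2% and 15.5% of all genes. Alox15, the 12/15-lipoxygenase that oxidizes arachidonic and linoleic acid, read 7.74, 8.06 and 7.72 in group A and 5.83, 6.15 and 5.31 in group C, a difference of 2.08 ± 0.36 or 4.22-fold (adjusted p = 0.000875). Group B, at 6.91, lay between them, and group D read 5.29, 4.25 and 5.85. The arrays of groups A and C did not overlap. Hpgd, which breaks down prostaglandins, was 2.12-fold lower (adjusted p = 0.0101), a call lost without replicate 2 of group C (adjusted p = 0.0526). Tbxas1, thromboxane synthase, was 1.91-fold higher (adjusted p = 0.0173), with no call without replicate 1 or 2 of group A or replicate 3 of group C, each of which left 1 that rose in the list. Ptgs2, the inducible cyclooxygenase, read 3.87, 4.76 and 4.87 in group A and 4.43, 4.05 and 3.68 in group C, and did not pass (adjusted p = 0.399).

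Most immediate early genes, which are transcribed within minutes of a stimulus, were higher in group A. Of 25 measured 16 (64.0%) rose, against 28.2% of all genes, with a median of 0.69, and 14 to 17 rose without any one array. Dusp2, a phosphatase of MAP kinases in lymphocytes, read 9.81, 9.89 and 9.82 in group A and 8.95, 8.93 and 8.95 in group C, 1.86-fold (adjusted p = 2.56e-05). Egr1, a zinc finger transcription factor, read 9.42, 9.85 and 9.71 in group A and 8.72, 8.90 and 8.82 in group C, 1.80-fold (adjusted p = 0.000218). Dusp1 read 8.68, 8.16 and 8.68 in group A and 7.45, 7.31 and 6.78 in group C, 2.51-fold (adjusted p = 0.000281). Nr4a1, an orphan nuclear receptor induced by antigen receptors, Ier5 and Zfp36, which destabilizes cytokine mRNA, were 2.20, 1.73 and 1.58-fold higher. The other probe sets of Ier5 gave -0.13 and 0.12, and that of Dusp1 gave 0.76. None of these others passed (adjusted p = 0.931, 0.867 and 0.0833 by limma). Fos was 2.26-fold higher (adjusted p = 0.0183), without a call when replicate 2 or 3 of group A or replicate 1 of group C was left out (adjusted p up to 0.0795). Klf6 was 1.47-fold lower (adjusted p = 0.0277), with no call without replicate 1 or 2 of group A or any 1 array of group C, and Jund did not pass (adjusted p = 0.638).

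Promoters of Egr1 and Dusp1 are shown because these genes are textbook targets of serum response factor and of cAMP signalling. Egr1 is the plus strand of chr18:26736828-26737127 and Dusp1 the plus strand of chr10:17184603-17184902, over the same window as above, with CArG boxes in capitals for Egr1 and TGACGTCA, the cAMP response element, in capitals for Dusp1.
Egr1: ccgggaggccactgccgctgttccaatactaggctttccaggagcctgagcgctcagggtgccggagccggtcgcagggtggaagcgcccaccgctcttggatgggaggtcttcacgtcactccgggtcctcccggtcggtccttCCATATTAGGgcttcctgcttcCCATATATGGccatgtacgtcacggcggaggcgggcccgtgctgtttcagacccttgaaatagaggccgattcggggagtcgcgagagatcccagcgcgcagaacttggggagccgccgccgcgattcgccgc
Dusp1: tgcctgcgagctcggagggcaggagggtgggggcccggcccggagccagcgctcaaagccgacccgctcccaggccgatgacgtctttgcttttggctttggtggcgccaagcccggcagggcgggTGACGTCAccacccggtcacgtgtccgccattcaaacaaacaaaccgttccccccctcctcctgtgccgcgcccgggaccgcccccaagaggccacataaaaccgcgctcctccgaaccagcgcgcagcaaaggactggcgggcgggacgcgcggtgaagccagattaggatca
Of the 17 immediate early genes with a promoter in the table, 4 held a CArG box (Egr1, Egr2, Zfp36 and Klf6) and 3 held TGACGTCA (Jund, Ier2 and Dusp1), while none held CCGGAAG. Over all promoters 1.64% held a CArG box and 1.91% held TGACGTCA, on either strand, as did 1.35% and 2.86% of the promoters of measured genes and 1.21% and 2.59% of those of genes called higher. Klf6 and Jund hold a motif and did not rise.

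The counts of T cell markers depended on the scaling. Of 19 T cell genes 4 rose and 2 fell, and 13 did not pass, while 11 rose and 2 fell with the 75th percentile centring, 12 and 1 as deposited and 13 and 2 with centring on the hybridization spikes. Zap70, the kinase of the T cell receptor, read 9.79, 9.75 and 9.81 in group A and 9.05, 9.26 and 9.01 in group C, 1.60-fold, and Cd6 and Gata3, the factor of T helper 2 cells, were 1.68 and 1.58-fold higher. The other probe set of Gata3 gave 0.41 and did not pass (adjusted p = 0.276 by limma). Cd28 was 2.16-fold lower in group A (adjusted p = 0.00871 by limma). Cd3e, which defines T cells, gave 0.33 ± 0.13 (adjusted p = 0.0829). Il7r, the receptor for the survival cytokine IL-7, read 5.99, 5.77 and 6.40 in group A and 8.79, 8.35 and 8.45 in group C, 5.57-fold lower (adjusted p = 0.00029), and its other probe set was 4.53-fold lower. In group D it read 6.73 and 7.01 in replicates 1 and 2 and 8.54 in replicate 3. Il7 itself was 2.60-fold lower in group A (adjusted p = 0.00427). In whole nodes, fewer cells of a type and less RNA per cell cannot be told apart.

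Of 10 B cell genes 3 rose and 3 fell. Ms4a1, which encodes CD20, read 9.38, 9.56 and 9.58 in group A and 10.34, 10.38 and 10.27 in group C, 1.76-fold lower, although with no call as deposited. Cr2, the complement receptor of follicular B cells and follicular dendritic cells, read 7.93, 8.17 and 7.73 in group A and 9.98, 10.03 and 10.34 in group C, 4.52-fold lower (adjusted p = 0.000465), and in group D it was low in replicates 1 and 2 as well. Cd37, a tetraspanin, was 1.82-fold higher, and Cd79b, of the B cell receptor, did not pass (adjusted p = 0.144). Of 7 genes of plasma cells 4 rose and none fell: Sdc1 (CD138), Tnfsf13 (the plasma cell survival factor APRIL), Mzb1 and Pou2af1 were 1.99, 1.78, 1.73 and 1.44-fold higher. Jchain, which joins IgA, read 9.54, 9.58 and 9.76 in group A and 9.08, 8.80 and 9.79 in group C and did not pass (adjusted p = 0.368).

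Most MHC class II genes that passed were higher in group A. Of 12 MHC class II genes 7 rose and 1 fell, and 3 to 8 rose without any one array: the count was 3 without replicate 2 of group A, and 4 without replicate 1 or 3 of group A or of group C. RT1-DMa and RT1-DMb, which load peptides, were 2.06 and 1.93-fold higher. RT1-DMa read 9.33, 9.30 and 9.23 in group A and 8.22, 8.32 and 8.20 in group C (adjusted p = 0.000402). Ctss, the protease of the invariant chain, was the one that fell, 1.25-fold (adjusted p = 0.033), and it was higher in group A as deposited, at a log2 difference of 0.43. Of 14 genes of MHC class I and peptide loading 2 rose and 1 fell: Erap1, which trims peptides for class I, read 8.79, 8.81 and 8.65 in group A and 10.30, 10.18 and 10.01 in group C, 2.66-fold lower (adjusted p = 3.05e-05). The 2 became 1 without replicate 3 of group C and 5 without replicate 3 of group D. Of 17 macrophage and dendritic cell genes 5 rose and none fell, a share of 29.4% that is near the 28.2% of all genes. C1qc, of complement C1q, read 10.22, 10.34 and 10.12 in group A and 9.07, 9.21 and 8.65 in group C, 2.39-fold (adjusted p = 0.00209), and C1qa and Cd68 were 1.95 and 2.37-fold higher. Mrc1, the mannose receptor, gave -0.87 ± 0.33 (adjusted p = 0.0614), and in a fit of groups A and C alone its adjusted p was 0.00544. Without replicate 3 of group D 9 of the macrophage genes rose.

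Neutrophil granule genes were mixed. Lcn2, lipocalin 2, read 6.69, 6.47 and 6.19 in group A and 4.25, 4.15 and 4.50 in group C, 4.44-fold higher (adjusted p = 0.000471), and Mmp9, gelatinase B, was 3.10-fold higher. Mmp8, the neutrophil collagenase, was 2.68-fold lower (adjusted p = 0.00131). S100a9, the most abundant neutrophil protein, read 7.62, 7.08 and 6.76 in group A and 5.31, 7.13 and 4.96 in group C, which overlap (adjusted p = 0.0586), and without replicate 2 of group C its adjusted p was 0.00392 and 5 of the 9 neutrophil genes rose rather than 3.

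**Figure D4:**
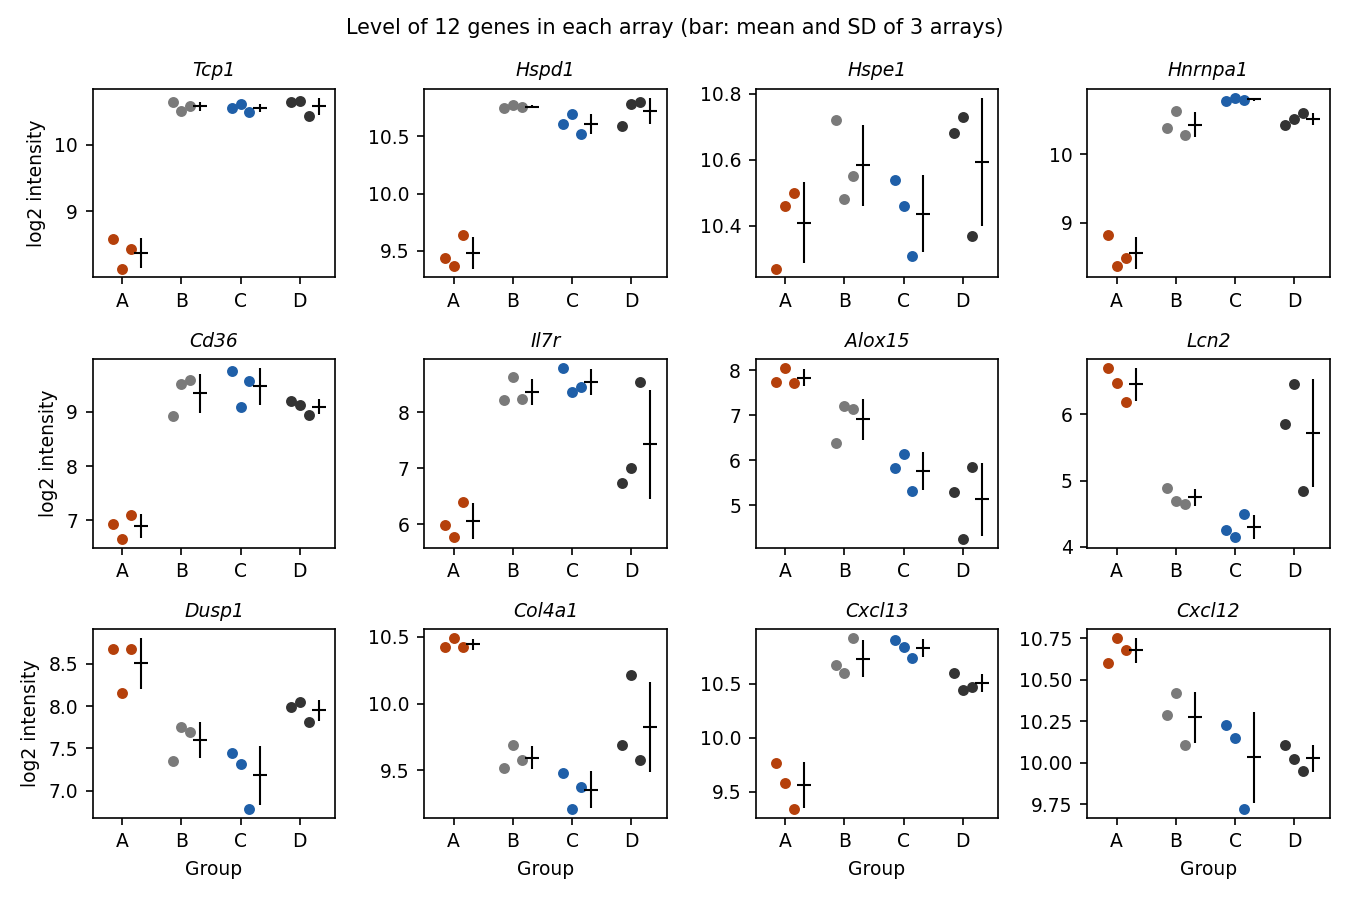
Log2 intensity of 12 genes (vertical axes) in each array of groups A, B, C and D, with the mean and SD of 3 arrays beside the points. Tcp1, Cd36 and Cxcl13 are low only in group A, Il7r is low in group A and in 2 of the 3 group D arrays, and Hspe1 overlaps between groups A and C.

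Of 39 chemokines and receptors 10 rose (25.6%) and 2 fell (5.13%), against 28.2% and 15.5% of all genes, and the count that rose was 6 without replicate 3 of group A and 5 without replicate 3 of group C. Cxcl13, which draws B cells to follicles, read 9.77, 9.58 and 9.34 in group A and 10.90, 10.84 and 10.74 in group C, 2.40-fold lower (adjusted p = 1.74e-05), though the call was lost as deposited, at -0.53. Cxcl12, a chemokine of stroma, was 1.56-fold higher, and Cxcl16 and Cx3cl1, both tethered to membranes, were 2.13 and 3.00-fold higher. The other probe sets of Cxcl12 gave 0.71 and -0.02 (adjusted p = 0.00102 and 0.975 by limma). Ccl19 and Ccl21, which draw T cells and dendritic cells, did not pass (adjusted p = 0.354 and 0.729). Of 35 cytokines and receptors 11 rose (31.4%) and 6 fell (17.1%), near the shares of all genes. Ifngr2 read 9.08, 9.21 and 9.06 in group A and 8.10, 8.12 and 7.97 in group C, 2.07-fold, and Il4r, Il2rb and Ltb, the membrane lymphotoxin that organizes nodes, were 1.73, 1.96 and 1.62-fold higher. Its receptor Ltbr was 2.77-fold higher. The other probe set of Ifngr2, above background in all 6 arrays, gave -0.13 and did not pass (adjusted p = 0.681 by limma). Il18 read 6.46, 6.39 and 6.82 in group A and 8.08, 8.08 and 7.74 in group C, 2.67-fold lower.

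Of 23 members of the interferon list 6 rose (26.1%) and 4 fell (17.4%), with a median of 0.10. These shares are near the 28.2% and 15.5% of all genes. Mx1, an antiviral GTPase, read 6.93, 6.65 and 7.12 in group A and 8.85, 8.91 and 8.92 in group C, 3.98-fold lower (adjusted p = 1.48e-05), and Ifi44 and Gbp2 were 3.35 and 2.69-fold lower. Irf7, the factor that amplifies type I interferon, read 7.89, 8.0 and 8.4 in group A and 6.90, 6.99 and 6.64 in group C, 2.39-fold higher (adjusted p = 0.000492), and Stat2, which carries the signal, was 1.61-fold higher. The other probe set of Stat2, above background in all 6 arrays, gave 0.14 and did not pass (adjusted p = 0.602 by limma). Mx1, Ifi44 and Irf7 are targets of the same pathway and differed in direction.

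Matrix genes were mostly higher. Of 28 fibroblast and extracellular matrix genes 17 rose (60.7%) and 2 fell, with a median of 0.74. Col4a1, of the basement membrane, read 10.42, 10.49 and 10.42 in group A and 9.48, 9.21 and 9.38 in group C, 2.13-fold (adjusted p = 0.000155), and Col4a2, Col15a1 and Col6a2 were 2.35, 2.25 and 2.96-fold higher. Col1a1 was 1.90-fold higher. Postn, periostin, read 8.79, 9.21 and 9.20 in group A and 10.59, 10.09 and 10.39 in group C, 2.45-fold lower. Dcn, decorin, was 2.10-fold lower (adjusted p = 0.0267), with no call without any 1 array of group A or replicate 1 or 3 of group C. The list mean in group D was as high as in group A in replicates 1 and 2, at 0.32 and 0.75, and -0.20 in replicate 3. Of 21 tissue inhibitors, CCN proteins and matrix metalloproteinases 8 rose and 2 fell; 5 rose without replicate 2 or 3 of group A or replicate 1 or 3 of group C. Mmp2, gelatinase A, and Mmp14, which activates it, were 2.59 and 1.99-fold higher. The other probe set of Mmp2 gave 0.16 and did not pass (adjusted p = 0.806 by limma).

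Of 19 genes of endothelium and high endothelial venules 8 rose (42.1%), 2 fell and 9 did not pass, and 5 rose without replicate 2 of group A. Tie1, a receptor of endothelium, read 7.52, 7.58 and 7.52 in group A and 6.26, 5.99 and 6.34 in group C, 2.54-fold (adjusted p = 0.000224). The adhesion molecules Icam1 and Selp and the clotting factor Vwf were 1.98, 2.67 and 2.41-fold higher. Vcam1 read 8.92, 9.25 and 9.23 in group A and 9.93, 10.08 and 9.95 in group C, 1.81-fold lower, with no call as deposited, so the adhesion molecules differed in direction. Of 8 mesothelium, 11 pancreas and 19 enteric neuron genes none passed, and of 18 smooth muscle genes 1 rose and 1 fell, though 7 rose without replicate 3 of group D.

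Genes that the study named, as nodes of its association network or beside it, were chosen by its authors on these arrays and are not independent of them. Grb2, an adaptor of receptor kinases, read 9.55, 9.75 and 9.72 in group A and 9.23, 9.09 and 9.11 in group C, 1.44-fold higher (adjusted p = 0.00163). Its other probe sets did not pass, at 0.33 and -0.16 (adjusted p = 0.0515 and 0.812 by limma). Timp1, an inhibitor of metalloproteinases, read 7.63, 7.64 and 7.85 in group A and 6.86, 6.60 and 6.47 in group C without overlap, but its adjusted p was 0.103. Group D, at 8.77, 8.94 and 6.51, widened the pooled error, and in a fit of groups A and C alone the adjusted p of Timp1 was 0.000884. Ccn2, connective tissue growth factor, read 7.03, 7.32 and 7.37 in group A and 6.28, 6.10 and 6.70 in group C (adjusted p = 0.124, and 0.00755 in groups A and C alone), and Acta2, a smooth muscle actin, read 8.08, 8.01 and 8.06 in group A and 7.37, 6.98 and 6.75 in group C (adjusted p = 0.128, and 0.00207). Gal, the neuropeptide galanin, read 3.30, 4.25 and 1.95 in group A and 2.77, 3.07 and 2.38 in group C (adjusted p = 0.811), Syt1 gave 0.68 (adjusted p = 0.401), Ackr3 gave 0.48 (adjusted p = 0.276), and Actg2 gave 1.15 with an SE of 1.21 (adjusted p = 0.521).

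Of 17 genes of the circadian clock 7 rose and 3 fell, and 4 rose without replicate 2 of group A. Clock, the partner of Bmal1, read 5.02, 5.77 and 5.73 in group A and 6.52, 6.66 and 6.86 in group C, 2.26-fold lower, and Nr1d2 (Rev-erb beta) was 2.56-fold lower. Cry1, a repressor of the loop, was 1.62-fold higher and Dbp, an output gene, 1.67-fold higher. Of 35 chromatin regulators 8 rose and 15 fell (12 and 5 as deposited), and 5 rose without replicate 3 of group A or replicate 1 of group C: Baz1a, of a remodelling complex, read 7.02, 6.85 and 7.03 in group A and 8.41, 8.44 and 8.27 in group C, 2.65-fold lower, and Ezh2, the methyltransferase of H3K27, was 1.73-fold lower, with no call as deposited. Kdm6b, which removes that mark, read 8.74, 8.88 and 8.63 in group A and 7.62, 8.05 and 7.67 in group C, 1.96-fold higher (adjusted p = 0.000294). As deposited the median of the chromatin list was 0.34, not -0.23. Of 29 genes of cell proliferation 5 rose and 9 fell (10 and 4 as deposited), with a median of -0.27 here and 0.20 as deposited. Of 12 genes of lymph node stroma 4 rose and 4 fell, and 2 rose without replicate 2 of group A or replicate 3 of group C.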

How the data were processed

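RNA of mesenteric lymph nodes was hybridized to Affymetrix whole-genome rat arrays, 1 per pup. The authors deposited MAS5 signal intensity on a linear scale, not scaled between arrays. Group assignment came from the array titles. The 31099 probe sets held 30 zeros, which took the smallest positive value. Log2 values were quantile normalized over the 12 arrays, and intensities under 1 were raised to 1. After 57 control probe sets were left out, 31042 were tested with limma 3.58.1 in R 4.3.3, with 1 mean for each of the 4 groups (8 residual degrees of freedom), a trend of the variance over level and a two-sided contrast of group A minus group C. P-values took the Benjamini-Hochberg adjustment over the whole table. The fit was tested on simulated data. The number of arrays limits the precision, and an exact permutation test of 3 arrays against 3 cannot give a p under 0.1. Calls needed an adjusted p under 0.05 and 2-fold; lists were counted at the adjusted p alone, on the brightest probe set of each gene.

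Of the probe sets 20826 have 1 gene symbol, 436 several and 9780 none. Background was the 95th percentile of 27 probe sets of bacterial poly-A spikes. These were taken as not added, which neither the labels nor the study states. Where the dimmer group lay within background on every array the fold was computed against that background. Named genes were the 15 largest calls in each direction with 1 symbol and no overlap of arrays, up to 6 members per list by adjusted p with members that went the other way or did not pass, the genes the study named in or beside its network and 3 probe sets without a symbol in each direction. Among the 15 largest, each gene stood with the called probe set that differed most. Col1a1, Fos, the genes named for a promoter motif and the 8 genes with calls in both directions were named after their values were seen. The setting, members and lists were chosen with earlier results of these data known.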

Additional observations from a re-analysis of the deposited data

How the results depend on the processing

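Over 203 probe sets of named genes no called log2 difference reversed under the 75th percentile centring, the floor of 32, the fit without a trend, the fit of only groups A and C or the leaving out of any 1 array, nor did any of the 176 that remained after the removal of the dimmest 40%. Leaving out 1 array at a time gave 1615 to 2439 calls higher and 2562 to 3359 lower in group A, and 181 to 287 list members (each gene once) that rose and 171 to 217 that fell, against 235 and 194. Of 179 named probe sets that passed, 161 passed without each array in turn. With the floor of 32, 29 of the 179 no longer passed, and without replicate 3 of both groups 25 did not. As deposited 17 no longer passed, apart from those that reversed, while 9 others passed only there. The calls moved by over 1.5 times as deposited (6557 higher, 1493 lower; list members 355 and 77), with centring on the hybridization spikes (5263 and 1991; 106 list members that fell), with the floor of 32 (1352 and 1899), with no minimum fold (5453 and 4668) and at 4-fold (217 and 909). With 1 probe set per gene 1185 were lower, and with every probe set of a list counted 339 fell. Leaving out replicate 3 of both groups, chosen after seeing the data as was the spike centring, left 138 list members that rose. Log2 differences reversed as deposited for Lpl (0.02), Ctss (0.43) and Klf6 (0.01), and with the spike centring for Ctss (0.26). Arrays with the same replicate number did not deviate together in groups A and C over all probe sets, with correlations of 0.00, 0.03 and 0.05. Such correlations cannot tell whether the numbers pair the pups by litter or run, which the labels do not give. Replicate 3 was the array with high Xist and low Eif2s3y in both groups. With the replicate number as a block 2211 probe sets were called higher and 3073 lower, 5106 of them also called without it, and none of the 203 changed its call. The cause of these shifts was not tested. Signal over background limits the dimmest probe sets, where few were called.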
